A study of Mus musculus with 2 samples.

Results

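Olfml3, Sparc, Serpine2, Serpinf1 and Ecm1 are 5 genes for secreted proteins that act in or on the extracellular matrix, and they were followed here across the cell classes of mouse spinal cord as microglial against vessel sources. They are 5 of the 27998 genes in the matrices, and each was found by its symbol in both libraries. The group was proposed after earlier results of the same libraries were known, in which Olfml3, Serpine2 and Serpinf1 had already been seen at lower levels in 1 library, so those differences are a description and no evidence in themselves. The data bear out the word microglial for only some of the 5: Ecm1 was at a higher level in endothelial-like than in microglia-like cells of each library. Sparc was at nearly the same level in both classes of the wild-type library. In the library labelled knock-out Sparc was 1.44-fold higher in microglia-like cells.

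The cells came from mice of the C57BL/6J background with the strain name Cx3cr1-CreERT2-YFP::flxRunx1, in which the Cx3cr1 locus drives Cre recombinase, active only with tamoxifen, together with yellow fluorescent protein (YFP), in microglia and in other cells that use Cx3cr1. Microglia are the macrophages of brain and spinal cord, and Runx1 is a transcription factor of blood cell development. The wild-type library came from mice given vehicle, and the library labelled knock-out from mice given tamoxifen, 1 mg per day in 5 once-daily intraperitoneal injections. Spinal cords were taken 4 weeks after the first injection and digested with collagenase at 37 °C, and YFP-positive cells were sorted and made into 3′ single-cell RNA libraries that count unique molecular identifiers (UMIs). The labels give the same strain name for both libraries, so the wild-type genotype rests on the label and on the absence of tamoxifen, and an effect of tamoxifen and one of the knock-out cannot be told apart. How many animals went into a library is not stated in the labels. There was 1 library per group, and no test between groups was possible. All intervals below are 95% intervals for counting error only.

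Olfml3 encodes olfactomedin-like 3, a secreted glycoprotein used as a marker of microglia. Sparc encodes osteonectin, a collagen-binding matricellular protein made by microglia and by vessel cells. Serpine2 (protease nexin-1, an inhibitor of thrombin and plasminogen activators) and Serpinf1 (pigment epithelium-derived factor, an anti-angiogenic serpin without protease inhibitor activity) belong to the serpin family, and Ecm1 encodes extracellular matrix protein 1, a glycoprotein that binds the basement membrane proteoglycan perlecan. In the spinal cord, endothelial cells, pericytes and meningeal fibroblasts make matrix proteins beside microglia.

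All 5 genes lie on the minus strand of GRCm38 in the GENCODE M21 annotation, and all are protein-coding. Olfml3 is at chromosome 3, positions 103722222 to 103738001, with at most 3 exons per transcript. Sparc is at chromosome 11, positions 55394500 to 55423183, and Serpinf1 is on the same chromosome at positions 75409769 to 75422701. Serpine2 is at chromosome 1, positions 79794197 to 79861180. Ecm1 is at chromosome 3, positions 95734147 to 95739569, and overlaps the microRNA gene Mir7014 on the same strand. None of the 5 had an annotated gene on the opposite strand within its bounds.

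Because the comparison concerns a RUNX transcription factor, the promoter windows of the genes were searched for the RUNX core motif TGTGGT or TGCGGT on both strands. Windows of 300 bases, from 250 before to 50 after the RefSeq start site, were taken from RefSeq on GRCm38.p6, where all 5 genes matched. Those of the 3 genes with lower levels in microglia-like cells and a higher level there than in vessel cells are shown with that of Sparc, 5′ to 3′ in the direction of the gene, with the RUNX motif in capitals.
Olfml3, chr3:103737952-103738251, minus strand: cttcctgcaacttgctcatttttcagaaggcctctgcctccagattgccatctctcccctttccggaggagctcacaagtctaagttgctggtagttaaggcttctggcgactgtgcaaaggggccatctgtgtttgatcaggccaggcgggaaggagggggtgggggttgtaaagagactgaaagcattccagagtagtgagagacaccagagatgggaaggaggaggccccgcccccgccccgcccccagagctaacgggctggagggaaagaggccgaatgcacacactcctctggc
Serpine2, chr1:79858616-79858915, minus strand: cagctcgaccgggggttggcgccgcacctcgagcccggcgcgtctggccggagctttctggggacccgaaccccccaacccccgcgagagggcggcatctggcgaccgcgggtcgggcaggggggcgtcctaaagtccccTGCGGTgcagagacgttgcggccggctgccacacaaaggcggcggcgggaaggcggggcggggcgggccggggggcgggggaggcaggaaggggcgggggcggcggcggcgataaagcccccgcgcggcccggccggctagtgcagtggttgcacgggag
Serpinf1, chr11:75422574-75422873, minus strand: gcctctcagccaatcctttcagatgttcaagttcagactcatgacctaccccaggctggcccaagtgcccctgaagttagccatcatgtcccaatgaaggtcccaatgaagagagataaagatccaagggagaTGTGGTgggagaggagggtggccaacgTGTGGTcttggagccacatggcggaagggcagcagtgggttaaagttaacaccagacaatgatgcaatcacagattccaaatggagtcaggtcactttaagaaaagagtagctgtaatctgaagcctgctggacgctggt
Sparc, chr11:55420031-55420330, minus strand: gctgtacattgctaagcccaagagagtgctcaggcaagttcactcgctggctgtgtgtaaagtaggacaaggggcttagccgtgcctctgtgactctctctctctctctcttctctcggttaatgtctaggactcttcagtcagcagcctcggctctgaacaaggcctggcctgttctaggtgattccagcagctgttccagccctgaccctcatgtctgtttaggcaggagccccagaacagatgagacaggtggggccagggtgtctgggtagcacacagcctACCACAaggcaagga

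Olfml3, whose level differed most between the libraries in microglia-like cells, had no RUNX core motif in this window, and neither had Ecm1. The Serpine2 window held TGCGGT once, with its first base 110 bases before the start site. The Serpinf1 window held TGTGGT at 117 and again at 90 bases before the start site. Sparc, the gene that was not lower in these cells, held the motif once on the opposite strand within the first 50 transcribed bases. So 3 of the 5 windows held a RUNX core motif, against 22.4% of the 32851 RefSeq promoter windows of the same length. The motif of PU.1, the macrophage lineage factor, searched as GAGGAAG or GAGGAAC on both strands, was in none of the 5 and in 18% of all windows. The SMAD element GTCTG, bound by the transducers of transforming growth factor beta, was in every window but that of Olfml3, and in 49.6% of all windows. A match describes letters only and is not a bound site. Only 1 window per gene was searched, and its last 50 bases occurred in 1 of 4 GENCODE transcripts of Olfml3. For the others this was 1 of 9 (Sparc), 2 of 6 (Serpine2), 1 of 8 (Serpinf1) and 3 of 10 (Ecm1). Other start sites were not searched.

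Depth was unequal: the wild-type matrix had 4582 barcodes with 37446978 UMIs in all and a median of 6376, against 2604 barcodes, 13075939 UMIs and a median of 3715.5 for the library labelled knock-out. The same 9 barcode sequences occurred in both. Levels are given as CPM, the UMIs of a gene per 1000000 UMIs of all genes in the same cells. Runx1, whose deletion the label names, was at 92.6 CPM in wild-type microglia-like cells and 181 CPM in those labelled knock-out (log2 ratio 0.96, 0.85 to 1.08), so it was not lower. The tags come from the 3′ end and no label says which part was deleted, so these counts do not check the label. Microglia-like cells, named from 12 marker genes, numbered 2185 and 1354, and endothelial-like cells 1558 and 833. Each class lay in different clusters in the libraries: all wild-type microglia-like cells were in cluster 0 and 1350 of the 1354 labelled knock-out in cluster 2, while endothelial-like cells were mostly in cluster 1 (wild type) and cluster 3. The clusters had been made without the 5 genes. Endothelial cells are not known to use Cx3cr1, so their number in a sort on YFP goes against the gate, and RNA of the other class was present in both classes. The 9 endothelial markers summed to 7045 CPM in microglia-like cells of the wild type and 2317 CPM in those labelled knock-out, and all 9 had a lower level in the latter (log2 ratio of the sums -1.60, none at 0). Conversely, the 12 microglia markers summed to 8954 and 3663 CPM in endothelial-like cells, with all 12 lower in the library labelled knock-out (-1.29). A further 433 and 137 cells of unnamed cluster 4 held microglial and endothelial markers together and entered no class.

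**Figure D1:**
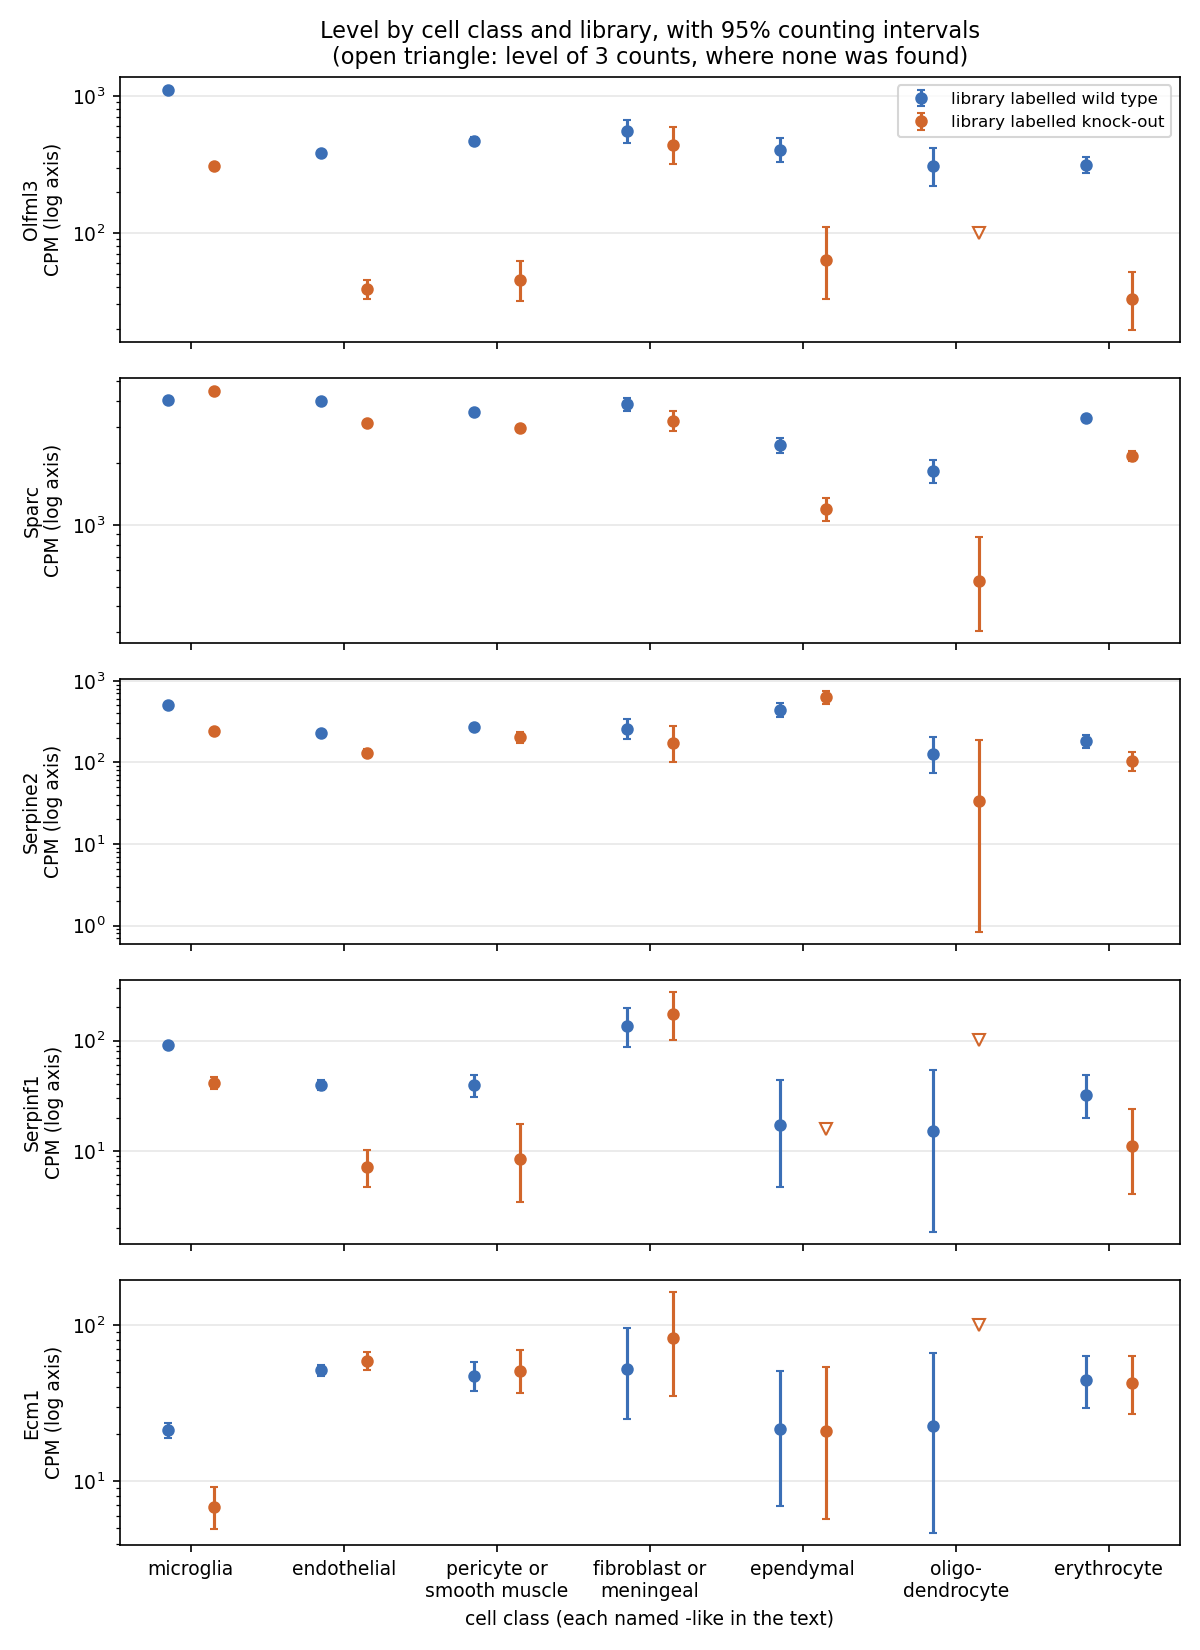
Level of each of the 5 genes (CPM, log axis) in 7 cell classes of both libraries; points are sums over the cells of a class, bars 95% counting intervals, and open triangles the level of 3 counts where none was found. Olfml3 is highest in wild-type microglia-like cells (1111 CPM), and Sparc differs by at most 1.53-fold between microglia-like and vessel classes of a library. Among points with a count, Ecm1 is lowest in microglia-like cells labelled knock-out (6.83 CPM). Oligodendrocyte-like cells labelled knock-out had no Ecm1 UMI, with a counting interval that reaches 123 CPM.

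In microglia-like cells Olfml3, Serpine2, Serpinf1 and Ecm1 were lower in the library labelled knock-out, and Sparc was slightly higher. Thus 4 of the 5 were at least 2-fold lower, against 5.42% of the 5759 genes that reached 20 CPM in either library. The count was 3 with each library clustered on its own and with the cells of cluster 4 added, where Serpine2 was at -0.77 and -0.98. The choice of genes used this contrast, so nothing is read from that count. Ecm1 entered the 5759 only through its wild-type level. The median log2 ratio over these genes was -0.038, and 53.5% of them were below 0, as were 4 of the 5 members.

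Olfml3 had 17530 UMIs in wild-type microglia-like cells, or 1111 CPM (1095 to 1128), which is 8.02 UMIs per cell. In the library labelled knock-out it had 1879 UMIs, or 306 CPM (292 to 319.7) and 1.39 UMIs per cell. The level was 3.64-fold lower, a log2 ratio of -1.86 (-1.93 to -1.79), the 29th lowest of the 5759 genes. Olfml3 was nevertheless higher in microglia-like than in endothelial-like cells of each library. The classes differed 2.91-fold in wild-type cells (1111 against 382 CPM) and 7.84-fold in cells labelled knock-out (306 against 39 CPM). Over the 12 microglia markers that define the class, the sum went the opposite way to Olfml3, from 24939 to 29072 CPM (log2 ratio 0.22), with single markers between -0.39 (Siglech) and 0.87 (P2ry12).

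Serpine2, the thrombin inhibitor gene, went from 502 CPM (491 to 513) in wild-type microglia-like cells to 242 CPM (230.2 to 255), a 2.07-fold lower level (log2 ratio -1.05, -1.13 to -0.97). Serpinf1, the anti-angiogenic serpin gene, went from 91.1 CPM (86.4 to 95.9) to 41 CPM (36.1 to 46.4), a log2 ratio of -1.15 (-1.35 to -0.96). Both serpins were higher in microglia-like than in endothelial-like cells of each library. For Serpine2 that difference was 2.21-fold and 1.83-fold, and for Serpinf1 2.31-fold (wild type) and 5.78-fold (labelled knock-out). The Serpinf1 values rest on fewer molecules, 1437 and 252 UMIs in microglia-like cells.

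Sparc, the collagen-binding matricellular gene, was the member with the most molecules, 63930 and 27660 UMIs in microglia-like cells. Its level there was 4052 CPM (4021 to 4084) in wild-type cells and 4498 CPM (4445 to 4552) in cells labelled knock-out, a log2 ratio of 0.15 (0.13 to 0.17). The size of this difference is 1.11-fold, larger than counting error and without a measure of the spread between libraries. In endothelial-like cells Sparc went the other way, from 4003 CPM (3966 to 4041) to 3127 CPM (3072 to 3182), a log2 ratio of -0.36 (-0.39 to -0.33). Microglia-like over endothelial-like levels were therefore nearly equal in the wild-type library (log2 ratio 0.018, -0.00011 to 0.035) and unequal in the other (0.52, 0.49 to 0.56). Sparc was thus no more microglial than endothelial in wild-type cells of this sort.

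Ecm1, the perlecan-binding glycoprotein gene, had the vessel pattern. In the wild type it was at 21.2 CPM (19 to 23.6) in microglia-like and 51.1 CPM (47 to 55.6) in endothelial-like cells, 2.41-fold apart. The library labelled knock-out had 6.83 CPM (4.92 to 9.23) and 59 CPM (51.6 to 67), 8.63-fold apart. The level in microglia-like cells was lower in the library labelled knock-out (log2 ratio -1.64, -2.14 to -1.17), as was the sum of the 9 endothelial markers in the same cells (-1.60). Once free RNA was taken out as estimated further on, too little Ecm1 was left in microglia-like cells for a ratio. In endothelial-like cells, where Ecm1 was higher, the libraries differed by less than counting error (0.21, -0.022 to 0.43).

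**Figure D2:**
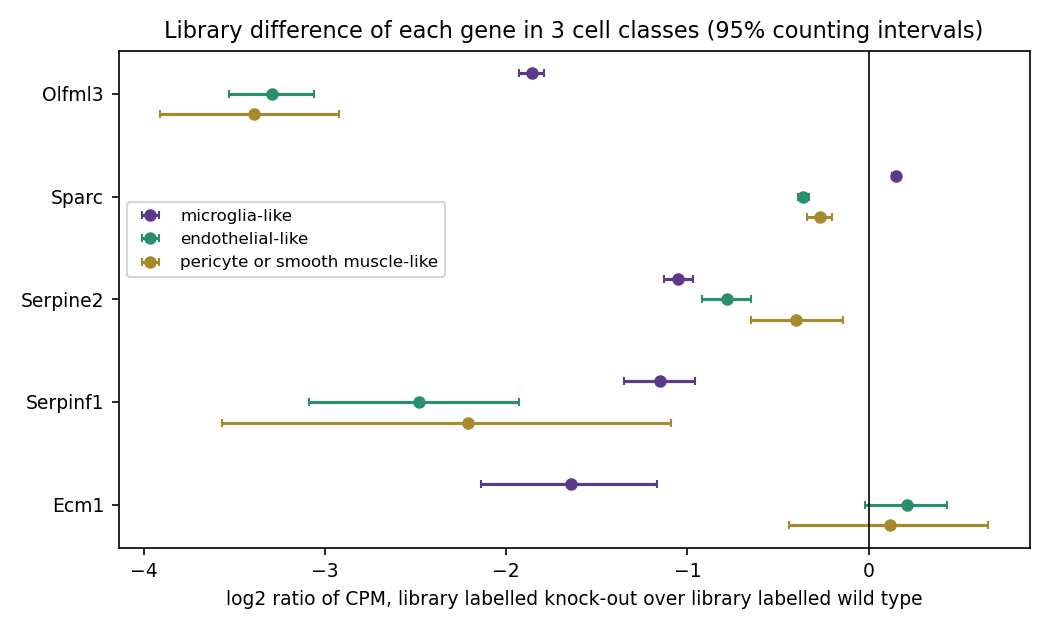
Log2 ratio of CPM, library labelled knock-out over wild-type library, for the 5 genes in microglia-like, endothelial-like and pericyte or smooth muscle-like cells, with 95% counting intervals. Olfml3 and Serpinf1 lie further below 0 in both vessel classes than in microglia-like cells, Sparc lies above 0 only in microglia-like cells, and Ecm1 lies below 0 only there.

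The vessel classes were then read against the microglial RNA they carried. In endothelial-like cells 2 of the 5 genes, Olfml3 and Serpinf1, were at least 2-fold lower in the library labelled knock-out, against 2.91% of 6281 genes, and nothing is read from that count either. Olfml3 went from 382 to 39 CPM (log2 ratio -3.29, -3.53 to -3.06), the third lowest value of the 6281 genes. Serpinf1 went from 39.5 to 7.09 CPM (-2.48, -3.09 to -1.93), with 427 and 28 UMIs, and Serpine2 from 227 to 132 CPM (-0.78, -0.92 to -0.65). The sum of the microglia markers fell by 1.29 on the same log2 scale in these cells. Pericyte or smooth muscle-like cells, 179 and 128, showed the same order: Olfml3 went from 471 to 44.9 CPM (-3.39), Serpinf1 from 39.2 to 8.49 CPM (-2.21), Serpine2 from 269.7 to 205 CPM (-0.40) and Sparc from 3556 to 2949 CPM (-0.27). Here too 2 of the 5 were at least 2-fold lower, against 2.7% of 6769 genes, and nothing is read from this count. In both vessel classes Serpinf1 reached 20 CPM only in the wild-type library. Ecm1 was at 46.9 and 51 CPM, with a ratio whose interval held 0 (0.12, -0.44 to 0.66). With these cells thinned to 1500 UMIs the ratio was -1.10 for Ecm1, below 0, and -0.031 for Serpine2, near 0. The microglia markers summed to 10462 and 5927 CPM in these mural cells (log2 ratio of the sums -0.82). The same cells carried 14639 and 14754 CPM of endothelial markers, beside 22600 and 23625 CPM in endothelial-like cells. Mural cluster 14, with 39 and 20 cells, counted all 12 microglia markers and stayed in the class. Its wild-type Olfml3 level was 680.2 CPM, against 319.6 to 433 CPM in the other mural clusters. What part the RNA of other classes has in the mural levels was not tested.

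The microglia markers found in endothelial-like cells give a scale for the 5 genes. In the wild-type library the 12 markers had between 17.4% (Gpr34) and 49.2% (Trem2) of their microglia-like level in endothelial-like cells, with a median of 32.2%. Olfml3 at 34.4%, Serpinf1 at 43.3% and Serpine2 at 45.3% lay inside this range. Sparc at 98.8% and Ecm1 at 241% lay above it. The same markers ran from 6.89% to 16.9% in the library labelled knock-out, with a median of 11.4%, and there Olfml3 at 12.8% lay inside, Serpinf1 at 17.3% just above, and Serpine2 at 54.5% and Sparc at 69.5% well above. Olfml3 was therefore the one gene of the 5 inside the marker range in both libraries, and Serpine2 changed from inside it to above it. Read the other way, Ecm1 had 41.5% and 11.6% of its endothelial-like level in microglia-like cells, inside the ranges of the 9 endothelial markers, 18% to 45.1% and 6.9% to 15%.

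**Figure D3:**
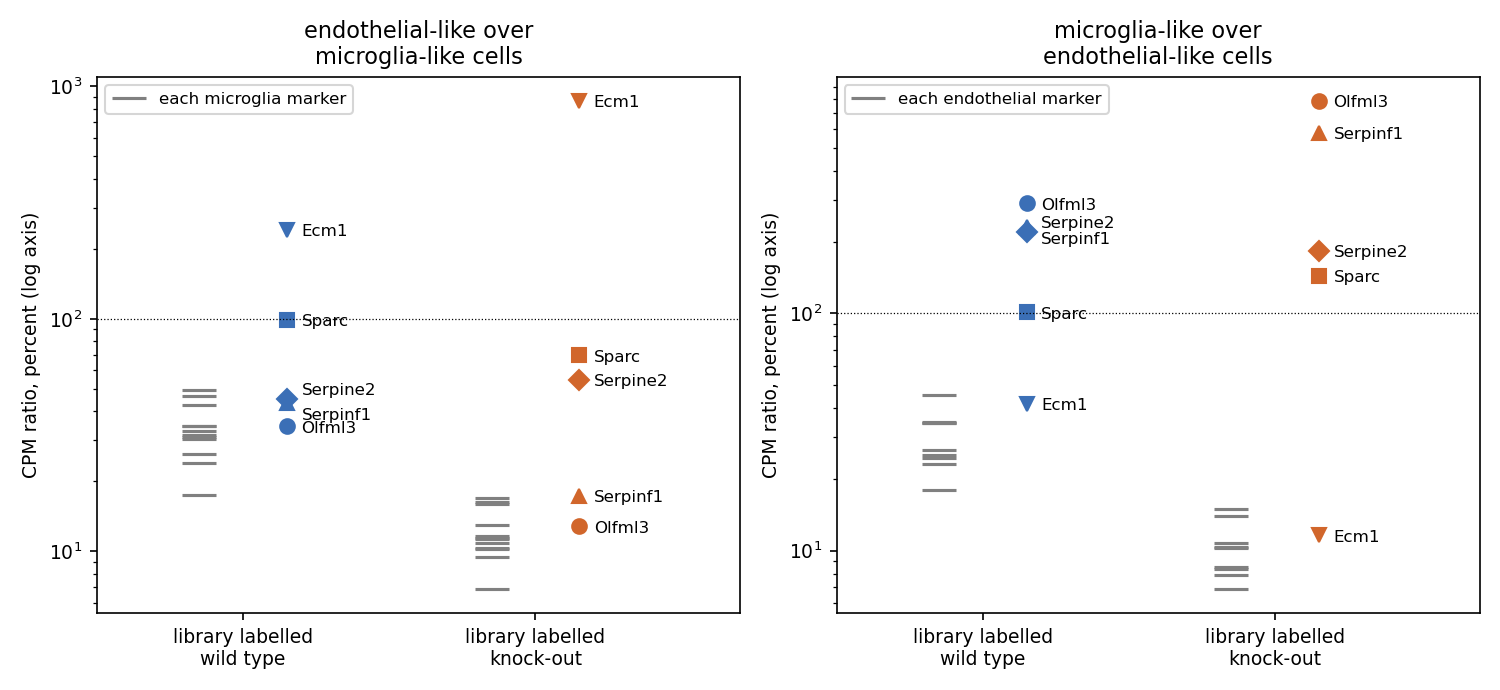
Level in one class as a percent of the level in the other (log axis), for each gene of the group (coloured symbols) beside each marker of the class in the denominator (grey dashes), in both libraries; the dotted line marks equal levels. On the left Olfml3 (34.4% and 12.8%) sits among the microglia markers in both libraries, and on the right Ecm1 (41.5% and 11.6%) sits among the endothelial markers.

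As an estimate of how far free RNA could reach, the profile of the whole library was subtracted so that every endothelial marker UMI in a microglia-like cell counted as free, which took out 51.3% of UMIs in microglia-like cells when wild type and 20.7% when labelled knock-out. Olfml3 was then at 1483 and 337 CPM, Serpine2 at 644 and 253 CPM, Serpinf1 at 118 and 44.8 CPM and Sparc at 4114 and 4690 CPM. The directions were those of the unadjusted values. Ecm1 fell to 7.05 CPM and 0.615 CPM, too low for a ratio. The same step in endothelial-like cells, with the microglia markers, took out 52.4% and 21.6% of UMIs and left Olfml3 below 0 in both libraries (-33.5 and -1.1 CPM). Sparc remained at 4014 and 2951 CPM and Ecm1 at 69.2 and 66.8 CPM. Serpine2 was at 73.2 and 113 CPM, which reverses its direction between the libraries in endothelial-like cells (log2 ratio 0.63 in place of -0.78), and Serpinf1 was at 11.3 and 1.79 CPM.

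Among the smaller classes, fibroblast or meningeal-like cells held the highest Serpinf1 levels and kept Olfml3 in both libraries, although they numbered only 12 and 11. Olfml3 there was at 555 CPM (455 to 671) in wild-type cells and 439 CPM (318 to 592) in cells labelled knock-out, a ratio whose interval held 0 (log2 -0.34, -0.88 to 0.19). In the library labelled knock-out this was 1.44-fold above microglia-like and 11.3-fold above endothelial-like cells. The microglia markers summed to 10605 and 3148 CPM in the same cells, so Olfml3 and these markers moved by unequal amounts. Serpinf1 was at 135 CPM (88.2 to 198) and 174 CPM (101 to 278) in them, from 26 and 17 UMIs, which in the library labelled knock-out was 4.24-fold above microglia-like cells, whereas in the wild-type library the interval held equality (log2 ratio 0.57, -0.052 to 1.12). Ecm1 was at 51.9 and 81.8 CPM, from 10 and 8 UMIs, and Sparc at 3862 and 3199 CPM. The endothelial markers summed to 15667 and 15289 CPM in the same cells, and their part in these levels was not tested.

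Ependymal-like cells, which line the central canal, numbered 17 and 26 and stood out for Serpine2. It was at 444 CPM (362 to 538) and 633 CPM (525 to 757) there, the only one of the 7 classes in which the ratio lay above 0 with its interval (log2 0.51, 0.12 to 0.91). Serpine2 in the library labelled knock-out was thus higher in ependymal-like than in microglia-like cells, at 633 against 242 CPM. Olfml3 went from 405 to 63.3 CPM and Sparc from 2438 to 1192 CPM in the same cells, and Serpinf1 had 4 UMIs (17.2 CPM) and then none, where the counting interval reaches 19.5 CPM, so a difference was not detectable. The microglia markers went from 9260 to 4499 CPM and the endothelial markers from 7206 to 1915 CPM in ependymal-like cells, and their part in these levels was not tested. Oligodendrocyte-like cells, 18 and 8, had 41 Olfml3 UMIs (308 CPM, 221 to 418) and none, where 3 counts would be 100.2 CPM and the counting interval reaches 123 CPM. Erythrocyte-like cells, 55 and 74 in number and led by haemoglobin genes, had Olfml3 at 313 and 33 CPM, Serpine2 at 181 and 103 CPM and Sparc at 3301 and 2160 CPM. Each of those levels was below that of endothelial-like cells, for Sparc in the library labelled knock-out 2160 against 3127 CPM. The microglia markers summed to 8364 and 4050 CPM in the same cells and the endothelial markers to 15308 and 14665 CPM. What part this RNA has in the erythrocyte-like levels was not tested.

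Named classes with fewer than 5 cells in a library, neutrophil-like (6 and 1) and venous endothelial-like cells (82 and 3), were left out of the following order. Wild-type venous endothelial-like cells had Olfml3 at 381 CPM, Serpine2 at 165, Sparc at 3631, Serpinf1 at 32.6 and Ecm1 at 50.9 CPM. Ordered by level within the wild-type library, Olfml3 ran from microglia-like (1111 CPM) through fibroblast or meningeal-like (555), pericyte or smooth muscle-like (471), ependymal-like (405), endothelial-like (382) and erythrocyte-like (313) to oligodendrocyte-like cells (308). Microglia-like and fibroblast or meningeal-like cells were apart beyond their counting intervals, as were endothelial-like (370.2 to 394) and erythrocyte-like cells (272 to 359), and the intervals of the other neighbours overlapped. Serpine2 had microglia-like (502) and ependymal-like cells (444) in the lead with overlapping intervals, then pericyte or smooth muscle-like (269.7), fibroblast or meningeal-like (259.6) and endothelial-like cells (227). For Sparc the order was microglia-like (4052), endothelial-like (4003), fibroblast or meningeal-like (3862), pericyte or smooth muscle-like (3556), erythrocyte-like (3301), ependymal-like (2438) and oligodendrocyte-like cells (1828), and the intervals of the first 3 overlapped. For Serpinf1 the order began with fibroblast or meningeal-like (135) and microglia-like cells (91.1), whose intervals overlapped, followed at a distance by endothelial-like (39.5) and pericyte or smooth muscle-like cells (39.2). Ecm1 had fibroblast or meningeal-like, endothelial-like, pericyte or smooth muscle-like and erythrocyte-like cells together between 44.1 and 51.9 CPM, with microglia-like cells at 21.2 CPM beside ependymal-like (21.5) and oligodendrocyte-like cells (22.6). The endothelial markers summed to 15667 CPM in wild-type fibroblast or meningeal-like cells and 15308 CPM in erythrocyte-like cells, beside 22600 CPM in endothelial-like cells. Ecm1 had 10 and 29 UMIs in the fibroblast or meningeal-like and erythrocyte-like cells, and what part endothelial RNA has there was not tested.

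Counts per cell were compared with every cell thinned to 1500 UMIs. After thinning, an Olfml3 UMI was held by 77.9% of microglia-like cells in the wild type (76.1 to 79.7) and 30.4% in the library labelled knock-out (28 to 33), against 44.5% and 6.36% of endothelial-like cells. The unthinned shares were 98.5% and 55.7% in microglia-like cells and 86.7% and 16.1% in endothelial-like cells, at median depths of 5530 and 3471 UMIs and of 5752 and 3580 UMIs. At full depth most wild-type cells of either class thus yielded Olfml3, and thinning set them apart. Exactly 3 thinned UMIs were held by 13.6% and 1.33% of microglia-like cells, and 4 or more by 11.3% and 1.18% (wild type first). The variance of thinned Olfml3 UMIs was 1.19 times the mean in the wild-type library and 1.5 times in the other, where cells ranged from 0 to 8 UMIs around a mean of 0.428.

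Serpine2 was found in 50.5% and 28.3% of thinned microglia-like cells and in 29.5% and 17.6% of thinned endothelial-like cells; unthinned, the shares were 90.3% and 57%, and 71.3% and 36.9%. Serpinf1 was found in 11.5% and 5.39% of thinned microglia-like cells, against 6.61% and 0.6% of endothelial-like cells. For Ecm1 the shares of thinned microglia-like cells, 3.25% and 0.96%, were below those of endothelial-like cells, 7.64% and 9.84%. Sparc was in 99.8% and 99.1% of thinned microglia-like cells and in 99.8% and 99% of thinned endothelial-like cells, so the shares did not separate the classes. Endothelial-like cells had a median of 6 thinned Sparc UMIs when wild type and of 4 when labelled knock-out, and microglia-like cells a median of 6 in both.

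**Figure D4:**
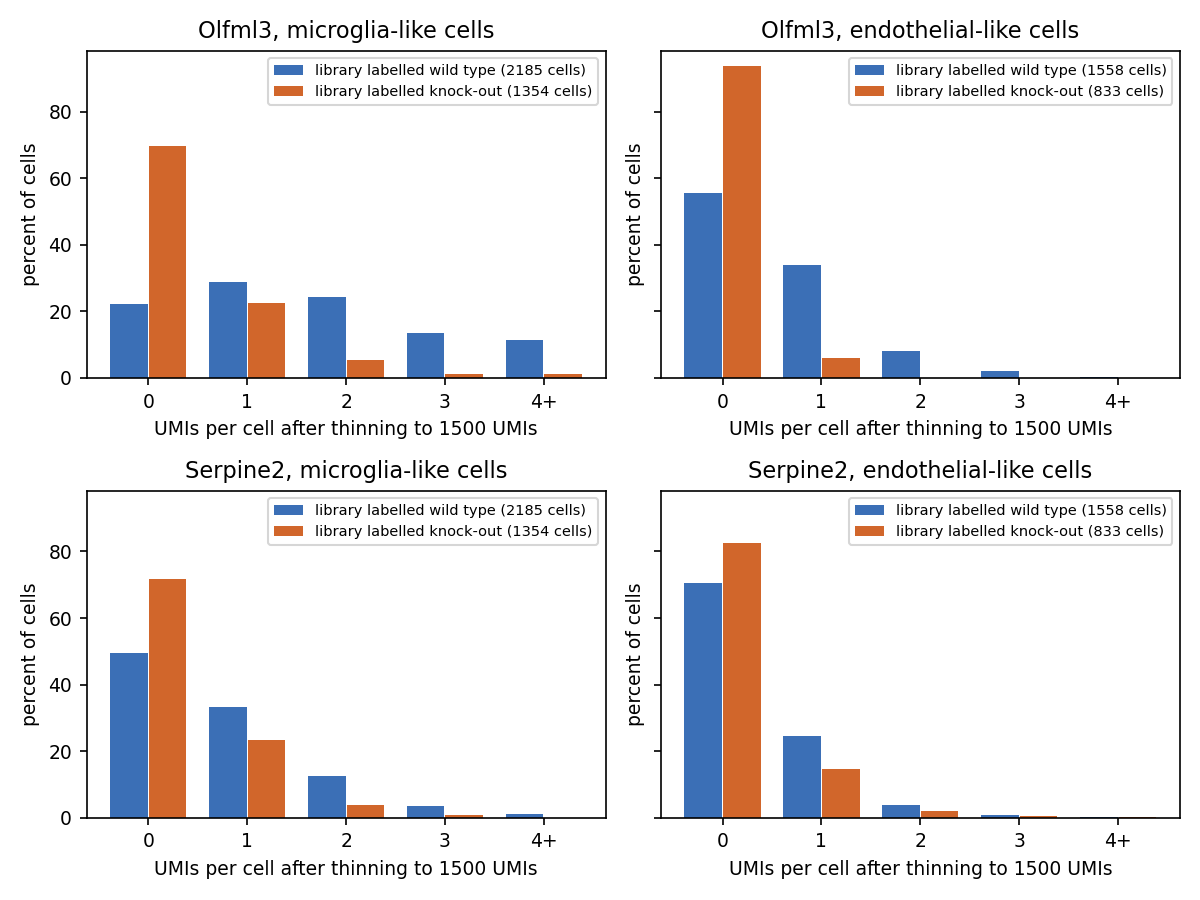
Percent of microglia-like and endothelial-like cells with 0, 1, 2, 3 or at least 4 UMIs of Olfml3 (top) and Serpine2 (bottom) after thinning to 1500 UMIs per cell, by library; the axis starts at 0. The library labelled knock-out has more cells at 0 in all 4 panels, for Olfml3 69.6% against 22.1% of microglia-like and 93.6% against 55.5% of endothelial-like cells.

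Within microglia-like cells no tie between the detection of Olfml3 and of the serpins was seen at this depth. In the wild-type library Serpine2 was in 50.1% of thinned cells with Olfml3 and in 51.7% of cells without it, and Serpinf1 in 11.7% and 11%. In the library labelled knock-out Serpine2 was in 28.6% and 28.1% of cells with and without Olfml3. All of these pairs of intervals overlapped.

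Since depth was unequal, cells of equal depth were compared. Among microglia-like cells with 3000 to 4000 UMIs, 569 and 282 in number, Olfml3 was at 1200 and 293 CPM, Serpine2 at 508 and 239 CPM and Sparc at 4023 and 4281 CPM. Cells with 6000 to 10000 UMIs, 550 and 185, had Olfml3 at 1093 and 325 CPM, Serpine2 at 517 and 240.0 CPM and Sparc at 4056 and 4575 CPM. Serpinf1 was at 113 and 40.1 CPM in the first of these windows and at 88.8 and 45.9 CPM in the second, with log2 ratios of -1.50 and -0.95 whose intervals overlapped.

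**Figure D5:**
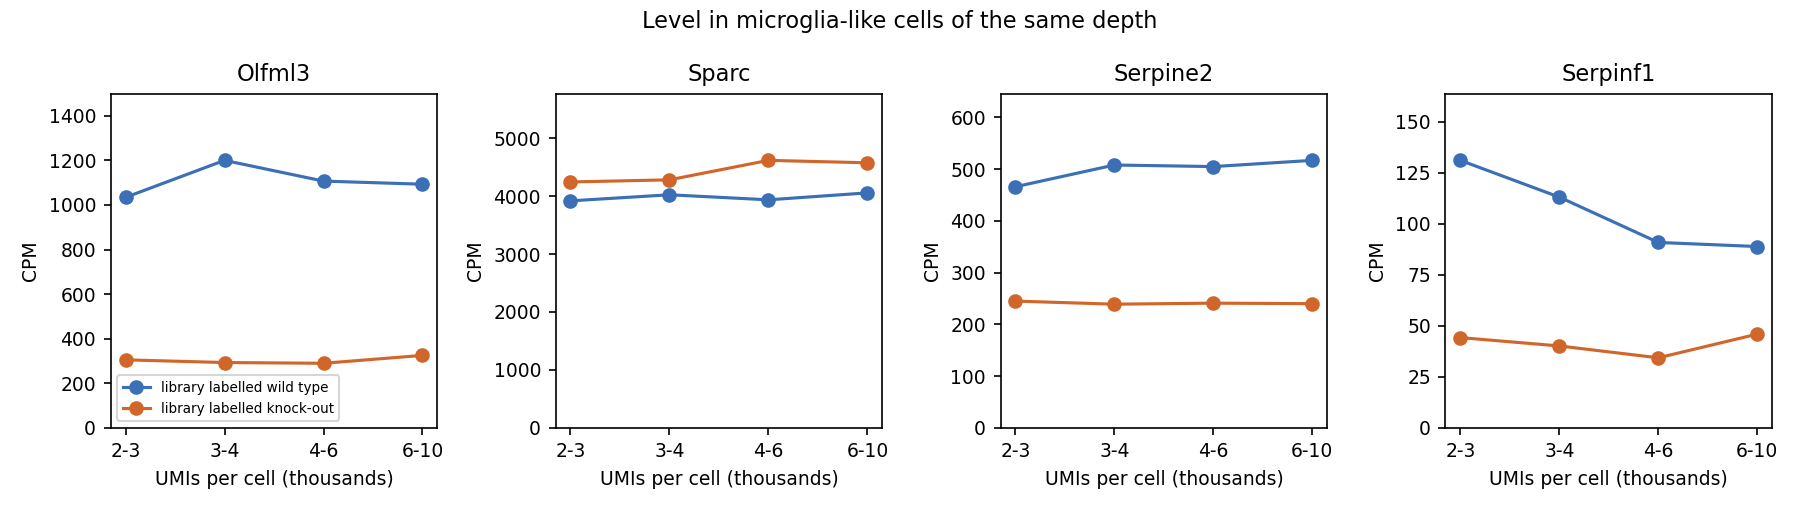
Level (CPM) of 4 genes in microglia-like cells of the same depth, in windows of total UMIs per cell, for both libraries; each point sums the cells of a window and the axes start at 0. The 2 lines stay apart in each window for Olfml3, Serpine2 and Serpinf1, with the library labelled knock-out lower, and for Sparc it is slightly higher; the first window holds only 23 wild-type cells.

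The endothelial RNA in a cell also differed between the libraries, so cells were matched on it. With 3 to 5 endothelial marker UMIs of 1500, which 106 wild-type and 681 cells labelled knock-out had, Olfml3 was at 1101 and 302 CPM, Serpine2 at 535 and 232 CPM, Serpinf1 at 81.8 and 40.1 CPM and Sparc at 4094 and 4494 CPM. With 6 to 9 such UMIs, in 742 and 203 cells, Olfml3 was at 1156 and 227 CPM, Serpine2 at 475 and 249.6 CPM and Sparc at 4093 and 4332 CPM. In both strata Olfml3 and Serpine2 were lower in the library labelled knock-out, while for Sparc the interval of the second stratum held 0 (log2 ratio 0.082, -0.0076 to 0.17). The strata at either end each held only 9 cells of 1 library. With at most 2 endothelial UMIs, in 9 wild-type and 461 other cells, Sparc was at 2889 and 4302 CPM (0.57), and with 10 or more, in 1328 wild-type and 9 other cells, it was at 4068 and 2815 CPM, the opposite direction (-0.53, -1.03 to -0.073). Olfml3 and Serpine2 stayed below 0 at both ends, with 1 UMI each in the 9 cells labelled knock-out that had 10 or more. Ecm1 had only 3 and 7 UMIs in the first stratum and gave no direction.

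Microglia-like cells of each library were also clustered again on their own. In the wild-type library Olfml3 was highest, at 1300 CPM (1260 to 1341), in the 680 cells whose leading genes include Gpr34 and P2ry12, and lowest of the 3 large sub-clusters, at 965 CPM (939 to 991), in the 741 cells led by Spp1, Il1b and Cxcl2. Serpine2 (558 and 461 CPM), Serpinf1 (107 and 78.6 CPM) and Sparc (4321 and 3801 CPM) had the same order. In the library labelled knock-out the 633 cells whose leading genes include P2ry13 and Gpr34 had Sparc at 5129 CPM (5034 to 5225) and the 721 cells led by Tnfaip3 and Il1a had 4154 CPM (4091 to 4218), with Serpine2 at 283 and 220.2 CPM and Olfml3 at 323 and 296 CPM. In each library the sub-cluster with the receptor gene Gpr34 among its leading genes had the higher Sparc and Serpine2 levels. The sub-clusters were made without the 5 genes, and their median depths differed, at 3992 and 6107 UMIs in the wild-type pair and 2941 and 4248 UMIs in the other.

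Families and partners of the 5 genes are given from lists of related genes, beside the values over all genes: in microglia-like cells a median log2 ratio of -0.038 with 53.5% below 0, and in endothelial-like cells 0.091 with 39% of 6281 genes below 0. Of the 8 genes of the SPARC family 3 were measured in microglia-like cells, and apart from Sparc these were Spock2, a brain proteoglycan, at 219.8 and 93.8 CPM (log2 ratio -1.23), and Sparcl1 (hevin) at 124 and 60.3 CPM (-1.04). Both were higher in endothelial-like cells: their microglia-like level was 21.7% and 21% of the endothelial-like level in the wild-type library and 7.23% and 7.84% in the other, inside the range of the endothelial markers. None of the other 9 olfactomedin-domain genes reached 20 CPM in microglia-like or endothelial-like cells. Of 22 further serpins 5 were measured in microglia-like cells, 4 lower and 1 higher in the library labelled knock-out, with a median of -1.03. The lowest were Serpinb6b (20.5 and 6.67 CPM, -1.62), Serpinb6a (58.4 and 24.2 CPM, -1.27) and Serpinb9 (23.9 and 11.7 CPM, -1.03), intracellular serpins. Their microglia-like levels were 27.4%, 40.1% and 41% of the endothelial-like ones in the wild-type library, so these were higher in endothelial-like cells. Serpinb6b and Serpinb9 reached 20 CPM only in the wild-type library, so the filter itself favoured lower values. Nothing is therefore read from the count and median of the 5 serpins. Serpinb6a and Serpinb6b are close paralogs, and their counts are uncertain where reads could match both.

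Receptors, partners and matrix genes were read in the same way. Lrp1, the endocytic receptor that clears serpin and protease complexes, was the single measured gene of its list of 11 and went from 87 to 184 CPM in microglia-like cells (log2 ratio 1.08, 0.96 to 1.19). Among 9 measured of 12 receptors and partners, 6 lay above 0 and 3 below it (median 0.25). Itgav, an integrin subunit, was at 44.9 and 68.8 CPM (0.62), Pnpla2, a lipase that binds the Serpinf1 product, at 47.4 and 32 CPM (-0.57), and Hspg2, which encodes perlecan, at 22.2 and 6.67 CPM (-1.73). The Hspg2 level in microglia-like cells was 46.5% and 14.2% of the endothelial-like level, beside 18% to 45.1% and 6.9% to 15% for the endothelial markers. The other gene of the list below 0 was Rpsa (-0.22), the laminin receptor and ribosomal protein gene, named after its value was seen. Of 26 matrix protein genes 7 were measured, with Tgfbi (1.16) and Spp1 (0.089) above 0, both named after their values were seen, and 5 below 0 (median -0.88), of which the lowest were the basement membrane genes Col4a2 (-1.69), Lamb2 (-1.55) and Col4a1 (-1.31). In endothelial-like cells, where these basement membrane genes were higher, 8 of 9 measured matrix genes were above 0, with a median of 0.36, and Spp1 (-1.07) was below. The basement membrane genes in microglia-like cells had 26.3% (Col4a1) to 49.4% (Lamb2) of the endothelial-like level in the wild-type library, beside 18% to 45.1% for the endothelial markers. In microglia-like cells Hspg2, Lamb2, Col4a1 and Col4a2 reached 20 CPM only in the wild-type library, and Tgfbi only in the other. Nothing is therefore read from the counts and medians of these lists.

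Among 5 measured of 16 metalloproteinase and inhibitor genes, Timp3, a matrix-bound inhibitor, went from 147 to 54.5 CPM (log2 ratio -1.44), at 32% of its endothelial-like level in the wild-type library. Adamts1, a secreted proteoglycan-cleaving protease, went from 586 to 883 CPM (0.59) and Adam10, a membrane sheddase, from 80.4 to 120.2 CPM (0.58), and the list had a median of 0.35 with 4 of 5 above 0. Transforming growth factor beta maintains the microglial programme to which Olfml3 belongs, and 8 of the 9 measured genes of its pathway, of 10 in the matrices, were above 0 in microglia-like cells (median 0.38); Tgfb1 itself was at 291 and 262 CPM (-0.15). Nrros, needed for activation of the latent cytokine, was at 84.9 and 146 CPM (0.78), the repressor Ski at 86.4 and 128 CPM (0.57) and the receptor Tgfbr2 at 79.3 and 116 CPM (0.55). Among the genes above 0, the intervals of Smad2 (-0.058 to 0.50) and Smad4 (-0.21 to 0.40) held 0. The 12 microglia markers had a median log2 ratio of 0.28 in microglia-like cells, with 3 of them below 0. Nothing particular to the pathway is therefore read from the count and median of its list. These are RNA levels of a list that includes repressors such as Ski, and activity of the pathway was not tested.

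Across the 7 named classes with at least 5 cells in each library, giving 14 points of log2(CPM + 20), the genes most like each of the 5 were found among 10697. The points share library, depth and free RNA, and the coefficients are a description. Nearest to Olfml3 were Tmem176a (Pearson r 0.96), Ssr4 (0.93) and Lyz2 (0.93), and to Serpinf1 they were Spp1 (0.907), Slc29a1 (0.888) and Nradd (0.875). Serpine2 was nearest to Plxnb2 (0.949), Pbxip1 (0.931) and Ramp1 (0.921). Sparc was nearest to Tspan4 (0.971), Rap1b (0.97) and Capg (0.966), and among those nearest to Ecm1 were Ccm2l (0.989) and Mxra7 (0.983). Among the 5 themselves the highest coefficient was that of Olfml3 with Serpinf1 (0.789) and the lowest that of Serpine2 with Ecm1 (0.138).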

How the data were processed

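UMIs were counted in 2 libraries, 1 per group, of sorted YFP-positive spinal cord cells. The deposited matrices hold raw UMI counts and had been filtered to cell barcodes by a rule not given in the sources used here. Per the submitters' processing notes, STAR, Cell Ranger 2.0.1, Seurat 2.1.0 and the builds GRCm38.p5 and mm10 were used, with no role stated for any. The deposited gene and barcode lists hold other content, names without numbers.

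A minimum of 300 genes and a maximum of 10% mitochondrial UMIs per barcode removed 8 barcodes, all labelled knock-out. The cells of both libraries were clustered jointly, with no batch correction, on log-normalised and scaled counts of 2000 variable genes, leaving out Runx1, sex-linked genes and the 5 genes themselves, with 30 principal components, 15 neighbours and Leiden resolution 0.5 (scanpy 1.11.5, leidenalg 0.10.2); the cluster of mural cells was split once more. Clusters were named from 21 marker lists. A marker counted in a cluster at 20 CPM or more if it also exceeded the midpoint of its range, and a name needed at least 3 counted markers and 50% of its list; the scoring was set after clusters were seen, so class names are rebuilt ones. No doublet caller was used for the values of the report.

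CPM are UMIs of a gene per 1000000 UMIs of all genes in the pooled cells of one class in one library, with exact Poisson intervals. Ratios carry exact conditional binomial intervals and shares exact Clopper-Pearson intervals (scipy 1.17.1), at 95%. They cover counting error only; where a count was 0, 3 counts served as the floor. With 1 library per group there is no test and no replicate check. The interval step was tested on simulated data. Besides the 5 genes and Runx1, up to 3 genes per gene list with the largest absolute ratio in microglia-like cells and the 3 genes nearest to each member were named, apart from items that are not reported here; marker genes and genes leading a sub-cluster were named after their values were seen. The members, the 8 gene lists and the marker lists were chosen with earlier results of these data known. Alternatives changed scaling, totals, weights, depth, filters, doublets, clustering and free RNA.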

Additional observations from a re-analysis of the deposited data

Results flagged for a closer look

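Sparc was picked out because its library difference ran in opposite directions in different classes of the same libraries. The log2 ratio of the library labelled knock-out over the wild-type library was 0.15 in microglia-like cells, -0.36 in endothelial-like cells and -0.27 in pericyte or smooth muscle-like cells, and none of the 3 counting intervals held 0. The difference between the classes was not tested, since there was 1 library per group. In microglia-like cells the endothelial markers summed to 7045 and 2317 CPM, and in endothelial-like cells the microglia markers summed to 8954 and 3663 CPM; their part in the result was not tested.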

How the results depend on the processing

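No paired analysis was possible because each group had 1 library. The count of 4 members below 0 in microglia-like cells held under the 13 alternatives that gave a ratio for all 5, and the count at least 2-fold lower was 3 under 2 of them, clustering each library on its own and adding cluster 4 (Serpine2 at -0.98). With background taken out, the log2 ratios in microglia-like cells were -2.14 for Olfml3, 0.19 for Sparc, -1.35 for Serpine2 and -1.40 for Serpinf1. In endothelial-like cells they were -0.44 for Sparc, -0.052 for Ecm1 and 0.63 for Serpine2, a reversal. For Serpine2 there, the step removed more from the wild-type value (227 to 73.2 CPM) than from the other (132 to 113 CPM). Clustering each library on its own, which named only 499 microglia-like cells labelled knock-out, gave -1.95 for Olfml3, 0.34 for Sparc and -0.77 for Serpine2, and in endothelial-like cells -0.29 for Sparc and -0.60 for Serpine2. Cells with at most 2 endothelial marker UMIs, only 9 of them wild type, gave -1.48, 0.57 and -1.43 and no value for Serpinf1 and Ecm1. Cells with 3 to 5 gave -1.20 for Serpine2, and their Ecm1 value, counted as below 0, rests on 3 and 7 UMIs. Thinning gave -1.98 for Olfml3 and 0.11 for Sparc in microglia-like cells, -3.52 for Serpinf1 in endothelial-like cells, and -0.031 for Serpine2 and -1.10 for Ecm1 in pericyte or smooth muscle-like cells. Sparc was at 0.13 with totals without mitochondrial, ribosomal protein and haemoglobin genes and at 0.11 with cluster 4 added, where Ecm1 was at -1.08. In endothelial-like cells Sparc was at -0.44 when scaled by the median ratio and -0.31 with equal weight per cell, and Ecm1 at 0.55 at Leiden resolution 1.0. At a minimum of 5 CPM, 6.52% of genes were at least 2-fold lower.

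Of 60 values of microglia-like over endothelial-like levels, 48 stayed within their interval. The exceptions were, after thinning, 2.67 for Olfml3, 0.65 for Serpine2 and 3.26 for Serpinf1 in the library labelled knock-out and 0.05 for Sparc, 1.07 for Serpine2 and 0.91 for Serpinf1 in the wild-type library. At resolution 1.0 they were -0.037 for Sparc, 1.37 for Serpinf1 and -0.97 for Ecm1 in the wild-type library and 0.49 for Sparc in the other, where equal weights gave 0.47 and separate clustering 0.63. The cause of these differences, and of the reversal of Serpine2, was not tested. The count at least 2-fold lower, alternatives for the vessel classes, cells with 3 to 5 endothelial marker UMIs, cluster 4 and shared barcodes were chosen after seeing the data. Ecm1 rests on 42 UMIs in microglia-like cells labelled knock-out and had no ratio once background was taken out.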
